A study of Caenorhabditis elegans with 12 samples.

Results

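The col genes of Caenorhabditis elegans encode cuticle collagens, and their transcripts were described here in early embryos that lack MET-2, LIN-65 or both. Members were all genes with a WormBase symbol beginning with col- in 3 deposited tables, 1 table per mutant. This gave 56 of the 2949 genes in the tables and 56 of the 156 annotated col genes; the other 100 had no values here. The strains were a double mutant that combines lin-65(delta) I with the met-2(n4256) III allele, the lin-65(delta) I single mutant, the met-2(n4256) III single mutant and the N2 (Bristol) wild type, each with 3 libraries from independent replicates. Worms were kept at 20 °C, and embryos with about 1 to 300 cells were collected 60 to 65 h after worms were synchronized, with the time set by strain. All groups share the temperature and this range of embryo stages, and each mutant allele is carried by the whole animal. Collection time went with the strain, so time and genotype cannot be told apart. Values were available for the 9 mutant libraries. They were read as log2 ratios to N2, because the lin-65 and met-2 transcripts lay far below 0 in mutants of that gene and near 0 otherwise. On this scale 1 unit is 2-fold and 2 units are 4-fold. N2 has no column of its own.

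Cuticle collagens are the structural proteins of the worm's exoskeleton. They are made and secreted by the epidermis, assemble through repeats of glycine followed by 2 further residues, and are cross-linked into a layered cuticle that is renewed at each moult. The embryonic cuticle is laid down late in embryogenesis, after the body has elongated. MET-2, the counterpart of mammalian SETDB1, dimethylates lysine 9 of histone H3, a mark of silent chromatin, and LIN-65 is its cofactor. Single col genes have mostly no assigned role of their own, so members are described below by their response and their place in the genome.

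The mutated genes matched the labels. The lin-65 transcript averaged −6.04 ± 0.21 in the double mutant and −5.88 ± 0.09 in lin-65, against −0.22 ± 0.04 in met-2 (SD, n = 3 each, as for every ± below). The met-2 transcript averaged −2.76 ± 0.06 in the double mutant and −2.36 ± 0.04 in met-2, against −0.02 ± 0.08 in lin-65. Replicate 1 of met-2 stood above replicates 2 and 3, with a median over all 2949 genes of 1.53 against 1.06 and 1.08. Of the 56 col genes 50 had their highest met-2 value in that library, as did 83.5% of all genes. The tables hold no counts and no expression level, so depth is unknown and no level can be compared between genes. How reads of similar collagen genes were divided is not given in the sources used here, and values of close copies are uncertain for that reason.

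In the double mutant and in met-2, most col genes stood well above N2, whereas in lin-65 most stood near it. The median over the 56 members was 1.91 in double mutants, 0.39 in lin-65 and 1.88 in met-2, beside medians over all 2949 genes of 1.47, 0.83 and 1.20 in the same order. Col genes therefore lay above the other genes of the tables in the double mutant and met-2, and below them in lin-65. Library medians of the members were 1.89, 1.996 and 1.81 in the double mutant, 0.21, 0.45 and 0.52 in lin-65, and 2.34, 1.63 and 1.79 in met-2. These medians of the lin-65 libraries did not overlap with those of the other strains. The same held over all 2949 genes. Their library medians were 1.47, 1.48 and 1.49 in the double mutant, 0.78, 0.97 and 0.77 in lin-65, and 1.53, 1.06 and 1.08 in met-2. In such bulk embryo libraries, fewer cells of a type and less RNA per cell cannot be told apart.

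**Figure D1:**
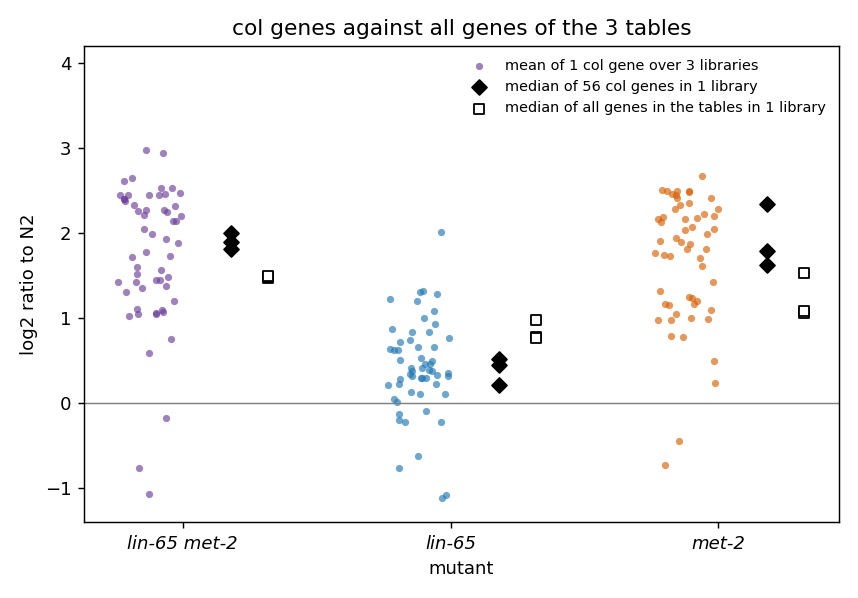
Log2 ratio to N2 (vertical axis) of col genes in the double mutant, lin-65 and met-2 (horizontal axis). Small points are the means of single col genes over 3 libraries, black diamonds the median of the 56 col genes in each library and open squares the median of all 2949 genes in each library; the diamonds lie above the squares in the double mutant and met-2 and below them in lin-65.

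A mean of at least 4-fold above N2 was reached by 26 of 56 members in the double mutant, where 21.7% of all 2949 genes reached it. The same was true of 1 member in lin-65 (1.66% of all genes) and of 24 members in met-2 (9.70% of all genes). A mean within 0.5 units of N2 was held by 1 member in the double mutant (1.80% of all genes), 30 members in lin-65 (17.5% of all genes) and 3 members in met-2 (6.54% of all genes). Every gene in the table of a mutant had a mean at least 1 unit from 0 there, so these values had a part in the selection and carry no test. The authors' tables held 50 members as higher and 1 as lower for the double mutant (85% and 4.41% of all genes), 5 and 2 for lin-65 (29% and 4.04%), and 44 and 0 for met-2 (65.2% and 0.644%). At a 2-fold limit, 51 members had a mean of at least 1 in the double mutant (85.8% of all genes), 8 in lin-65 (36.3%) and 46 in met-2 (68.3%). Just inside that limit were col-40 at 1.02 in double mutants, col-118 at 1.00 in lin-65 and col-105 at 1.05 in met-2, and just outside it col-156 at 0.75, col-34 at 0.93 and col-72 at 1.00 in the same order. Passing 2-fold did not by itself place a gene in a table, since col-154 at 1.09 in double mutants, col-74 at 1.23 in lin-65 and col-75 at 1.17 in met-2 were not held by the table of that mutant.

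The highest values in the double mutant belonged to col-165 on chromosome X and col-74 on chromosome II. For col-165 the libraries read 2.91, 3.07 and 2.93 in the double mutant, 1.01, 1.39 and 1.20 in lin-65, and 2.85, 1.87 and 2.13 in met-2. For col-74 they read 2.90, 3.04 and 2.88 in the double mutant, 1.04, 1.37 and 1.28 in lin-65, and 2.83, 1.87 and 2.16 in met-2. Both genes had all double mutant libraries above all met-2 libraries and all met-2 libraries above all lin-65 libraries. They were followed in the double mutant by col-131 at 2.64 ± 0.23, col-14 at 2.62 ± 0.09, col-109 at 2.53 ± 0.11 and col-144 at 2.53 ± 0.10.

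In met-2 the highest member was col-45 on chromosome I, which was also the highest in lin-65. Its libraries read 2.34, 2.22 and 2.08 in the double mutant, 2.32, 1.70 and 2.02 in lin-65, and 2.87, 2.52 and 2.61 in met-2. It was the only member with a lin-65 mean past 4-fold, and its double mutant and lin-65 libraries overlapped. The next in met-2 were col-144 at 2.50 ± 0.46, col-3 at 2.50 ± 0.39, col-107 at 2.49 ± 0.42, col-14 at 2.49 ± 0.47 and col-125 at 2.49 ± 0.35. The same 5 genes stood at 0.30 to 0.62 in lin-65. In lin-65 col-45 was followed by col-40 at 1.32 ± 0.27, col-131 at 1.30 ± 0.15, col-72 at 1.29 ± 0.09, col-74 at 1.23 ± 0.17 and col-165 at 1.20 ± 0.19.

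**Figure D2:**
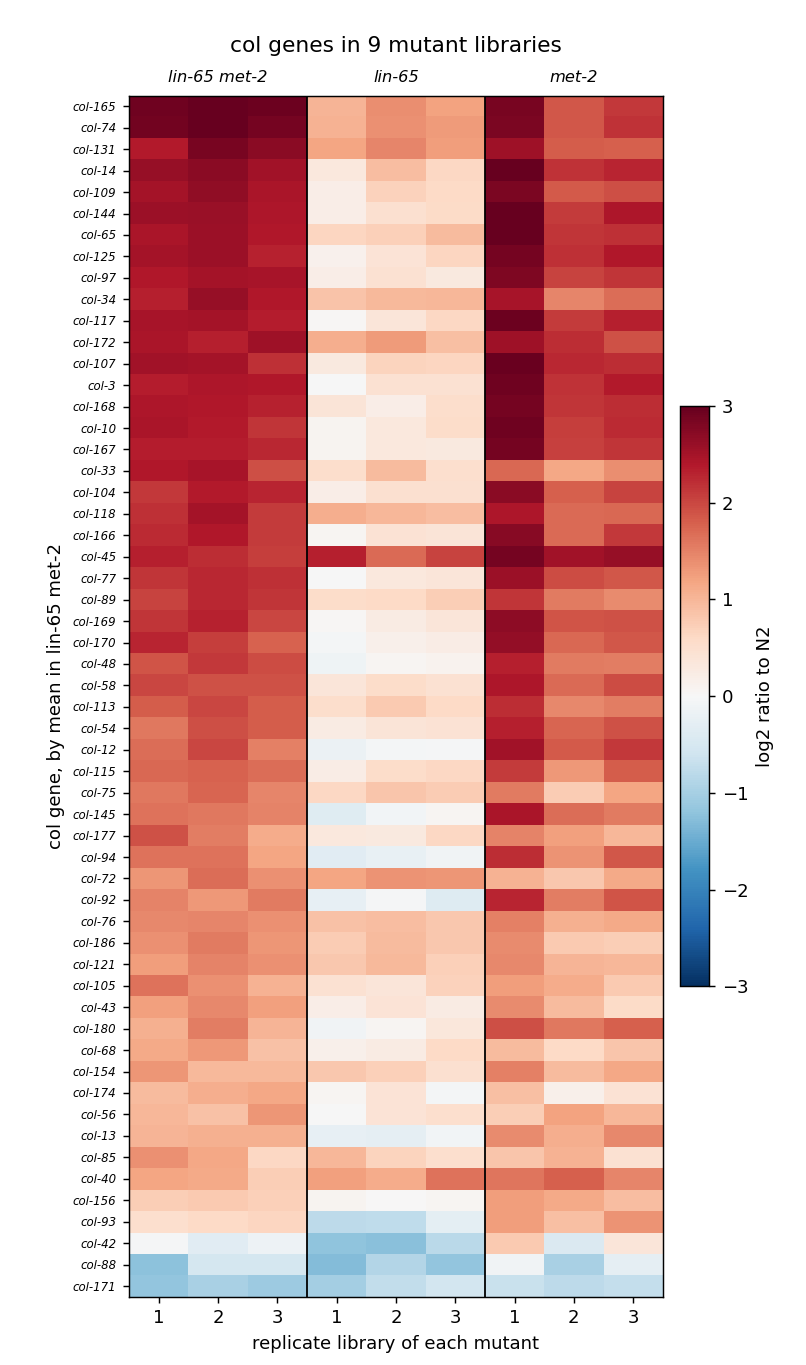
Log2 ratio to N2 (colour, red above and blue below N2) of the 56 col genes in each of the 9 mutant libraries. Rows run from the highest to the lowest mean in the double mutant, from col-165 at 2.97 to col-171 at −1.07; columns are replicates 1 to 3 of the double mutant, lin-65 and met-2, and the lin-65 block is pale for most genes that are red in the other blocks.

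A few members stood below N2. In the double mutant these were col-171 at −1.07 ± 0.10, col-88 at −0.76 ± 0.40 and col-42 at −0.18 ± 0.14, and in met-2 they were col-171 at −0.72 ± 0.06 and col-88 at −0.45 ± 0.46. In lin-65 there were 9, namely col-88 at −1.12 ± 0.22, col-42 at −1.08 ± 0.25, col-171 at −0.77 ± 0.24, col-93 at −0.62 ± 0.27, col-92 at −0.22 ± 0.17, col-94 at −0.22 ± 0.12, col-13 at −0.19 ± 0.10, col-145 at −0.13 ± 0.21 and col-12 at −0.09 ± 0.08. A mean below 0 was held by 6.41%, 8.75% and 6.04% of all genes in the double mutant, lin-65 and met-2. Of the members, col-171 and col-88 were below N2 in every 1 of the 9 libraries. The member with the largest spread was col-42, at 0.78, −0.43 and 0.36 in met-2, followed there by SDs of 0.55 for col-109, 0.53 for col-34 and 0.52 for col-166. The median SD of a member was 0.13 in double mutants, 0.17 in lin-65 and 0.39 in met-2.

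Any baseline common to the mutants cancels in a difference between them, and such differences were tested with limma on all 2949 genes, with Benjamini-Hochberg adjustment over all of them. The selection of the tables still bears on these differences. The table of the double mutant held 51 of the 56 members, that of lin-65 held 7 and that of met-2 held 44, so most members have values here through the strains in which they are high. A lower lin-65 value is thereby partly fixed for the col genes. Over all 2949 genes, the tables held 2638 for the double mutant, 973 for lin-65 and 1941 for met-2. The lin-65 table thus held a smaller share of the members than of all genes. Comparisons of the members with all genes are therefore not free of the selection. Differences, calls and p-values against lin-65 below are a description. The comparison of lin-65 with met-2 sets loss of the cofactor against loss of the enzyme. Of the 56 members, 47 were lower in lin-65 than in met-2 (limma, adjusted p at most 0.05), where 41.9% of all genes were, and 0 were higher, where 4.92% of all genes were. At an unadjusted p under 0.05, 48 were lower and 0 higher. Shares of all genes at that unadjusted limit were not counted by direction, here and below. All 3 lin-65 libraries lay below all 3 met-2 libraries for 48 members (47.1% of all genes) and above them for 1, col-72 (5.80% of all genes). A difference within 0.5 units was held by 10 members (53.7% of all genes). The median difference of the members was −1.30 and that of all genes −0.42. Relative to the median of all genes the members' median was therefore −0.88, with 48 of 56 below it.

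The largest difference between lin-65 and met-2 was that of col-12 on chromosome V. Its libraries read −0.18, −0.06 and −0.03 in lin-65, against 2.51, 1.85 and 2.12 in met-2, a difference of −2.25 (SE 0.20, limma adjusted p = 2.10e-07). For col-3 on chromosome IV they read −0.01, 0.46 and 0.45 in lin-65, against 2.92, 2.17 and 2.39 in met-2 (difference −2.20, SE 0.21, limma adjusted p = 4.46e-07). In both genes the gap between the strains was several times the spread within either. The next were col-92 at −2.12 (SE 0.20), col-167 at −2.12 (SE 0.21), col-117 at −2.11 (SE 0.22) and col-10 at −2.09 (SE 0.22), with limma adjusted p from 4.46e-07 for col-92 to 1.18e-06 for col-10. The table of lin-65 held none of the genes named in this paragraph, so their p-values are a description. In all, 27 members differed by 1.5 units or more in this direction, where 3.97% of all genes did.

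Of the 9 members that did not pass, the smallest differences of lin-65 from met-2 were −0.05 for col-171 (95% interval −0.41 to 0.32), −0.06 for col-85 (−0.52 to 0.40) and −0.14 for col-186 (−0.55 to 0.27). With replicate 1 of met-2 left out, 43 members remained lower (36.8% of all genes called in either direction). There col-68, col-88, col-105 and col-154 no longer passed. With every library set to a median of 0 over all genes, 37 were lower and 1 was higher (30.1% of all genes called in either direction). Members at least 1 unit from 0 in both lin-65 and met-2 numbered 7, and 6 of them were lower in lin-65 (limma, adjusted over the 903 genes that met this condition, of which 33.1% were called).

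Most col genes were higher in the double mutant than in lin-65. In the double mutant 50 of 56 members were higher than in lin-65 (limma, adjusted p at most 0.05; 74.3% of all genes) and 0 were lower (4.61% of all genes), and the counts were the same at an unadjusted p under 0.05. Calls in either direction were made for 78.9% of all genes. All 3 double mutant libraries lay above all 3 lin-65 libraries for 50 members (77.9% of all genes) and below them for 0 (5.9% of all genes), while 7 members differed by less than 0.5 units (27.7% of all genes). The share called was thus near that of the tables as a whole, while the sizes were larger, with a median difference of 1.45 for the members and 0.70 for all genes. A difference of at least 1.5 was found for 27 members, against 4.92% of all genes.

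For col-97 on chromosome III, the member with the largest difference, the libraries read 2.40, 2.50 and 2.46 in the double mutant, against 0.20, 0.47 and 0.30 in lin-65 (difference 2.13, SE 0.20, limma adjusted p = 1.06e-06). For col-144 on chromosome V they read 2.58, 2.60 and 2.41 in the double mutant, against 0.19, 0.47 and 0.57 in lin-65 (difference 2.12, SE 0.21, limma adjusted p = 1.34e-06). In both, every double mutant library exceeded every lin-65 library by more than 1.5 units. They were followed by col-3 at 2.10, col-117 at 2.10, col-167 at 2.09 and col-125 at 2.06 (SE 0.20 to 0.22). The table of lin-65 held none of these genes, so their p-values are a description. The smallest differences were 0.17 for col-72 (95% interval −0.20 to 0.54), 0.20 for col-45 (−0.20 to 0.60) and −0.30 for col-40 (−0.71 to 0.11). Libraries set to a median of 0 over all genes gave 37 higher and 3 lower members (38.1% of all genes called in either direction). In that setting col-72 turned to −0.47 (limma adjusted p = 0.0303). The members' median relative to all genes was 0.75 with or without centring, which cannot change it because all genes of a library shift alike. Members at least 1 unit from 0 in both strains numbered 8, and 5 of them were higher in the double mutant (limma, adjusted over 1010 such genes, of which 73.0% were called).

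Few col genes differed between the double mutant and met-2. Of the 56 members, 3 were higher in the double mutant than in met-2 (limma, adjusted p at most 0.05; 11.8% of all genes) and 2 were lower (4.92% of all genes), and 47 differed by less than 0.5 units (71.8% of all genes). Double mutant libraries all lay above the met-2 libraries for 5 members (27.7% of all genes) and all below them for 7 (8.07% of all genes), and they overlapped for 44. The median difference was 0.04 for the members and 0.32 for all genes, so that 43 of 56 members lay below the median of all genes. The higher genes were col-33, col-165 and col-74, and the lower genes col-40 and col-93. Libraries of col-33 read 2.40, 2.48 and 1.93 in the double mutant, against 1.73, 1.15 and 1.39 in met-2 (difference 0.85, SE 0.21, limma adjusted p = 0.0138). Those of col-40 read 1.18, 1.14 and 0.74 in the double mutant, against 1.60, 1.79 and 1.46 in met-2 (difference −0.59, SE 0.19, limma adjusted p = 0.0447). The groups did not overlap in either gene. The other 3 differences were 0.69 for col-165, 0.65 for col-74 and −0.59 for col-93 (limma adjusted p = 0.0405, 0.0464 and 0.0429). Only the table of met-2 held col-93, so a lower double mutant value is partly fixed for it and its p-value is a description. The smallest differences were −0.01 for col-117 (95% interval −0.47 to 0.44), −0.02 for col-115 (−0.45 to 0.41) and −0.02 for col-169 (−0.47 to 0.42).

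The number of calls between the double mutant and met-2 changed with the libraries used and with the scaling, while the 5 differences kept their sign. Without replicate 1 of met-2, 19 members were higher and 3 lower, with the earlier 5 among them, and 66.5% of all genes were called. Without any 1 of the 6 libraries, the difference was 0.71 to 1.02 for col-33, 0.49 to 0.97 for col-165, 0.45 to 0.92 for col-74, −0.67 to −0.45 for col-40 and −0.71 to −0.50 for col-93. Leaving out replicate 2 of met-2 gave 0 higher and 2 lower members (7.63% of all genes called in either direction). Leaving out its replicate 3 gave 0 of either (5.80% of all genes), with 5 higher and 6 lower at an unadjusted p under 0.05. Without replicates 1, 2 or 3 of the double mutant, 0, 0 and 1 members passed in limma (6.58%, 5.76% and 5.19% of all genes). At an unadjusted p under 0.05 there were 8, 4 and 9 higher and 4, 4 and 2 lower members in those settings. With libraries set to a median of 0 over all genes, 1 was higher and 13 were lower (14.1% of all genes called in either direction), and the members' median difference turned to −0.22. The calls of col-33, col-40 and col-93 were kept there, and col-165 at 0.43 and col-74 at 0.40 no longer passed (limma adjusted p = 0.0599 and 0.0810).

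**Figure D3:**
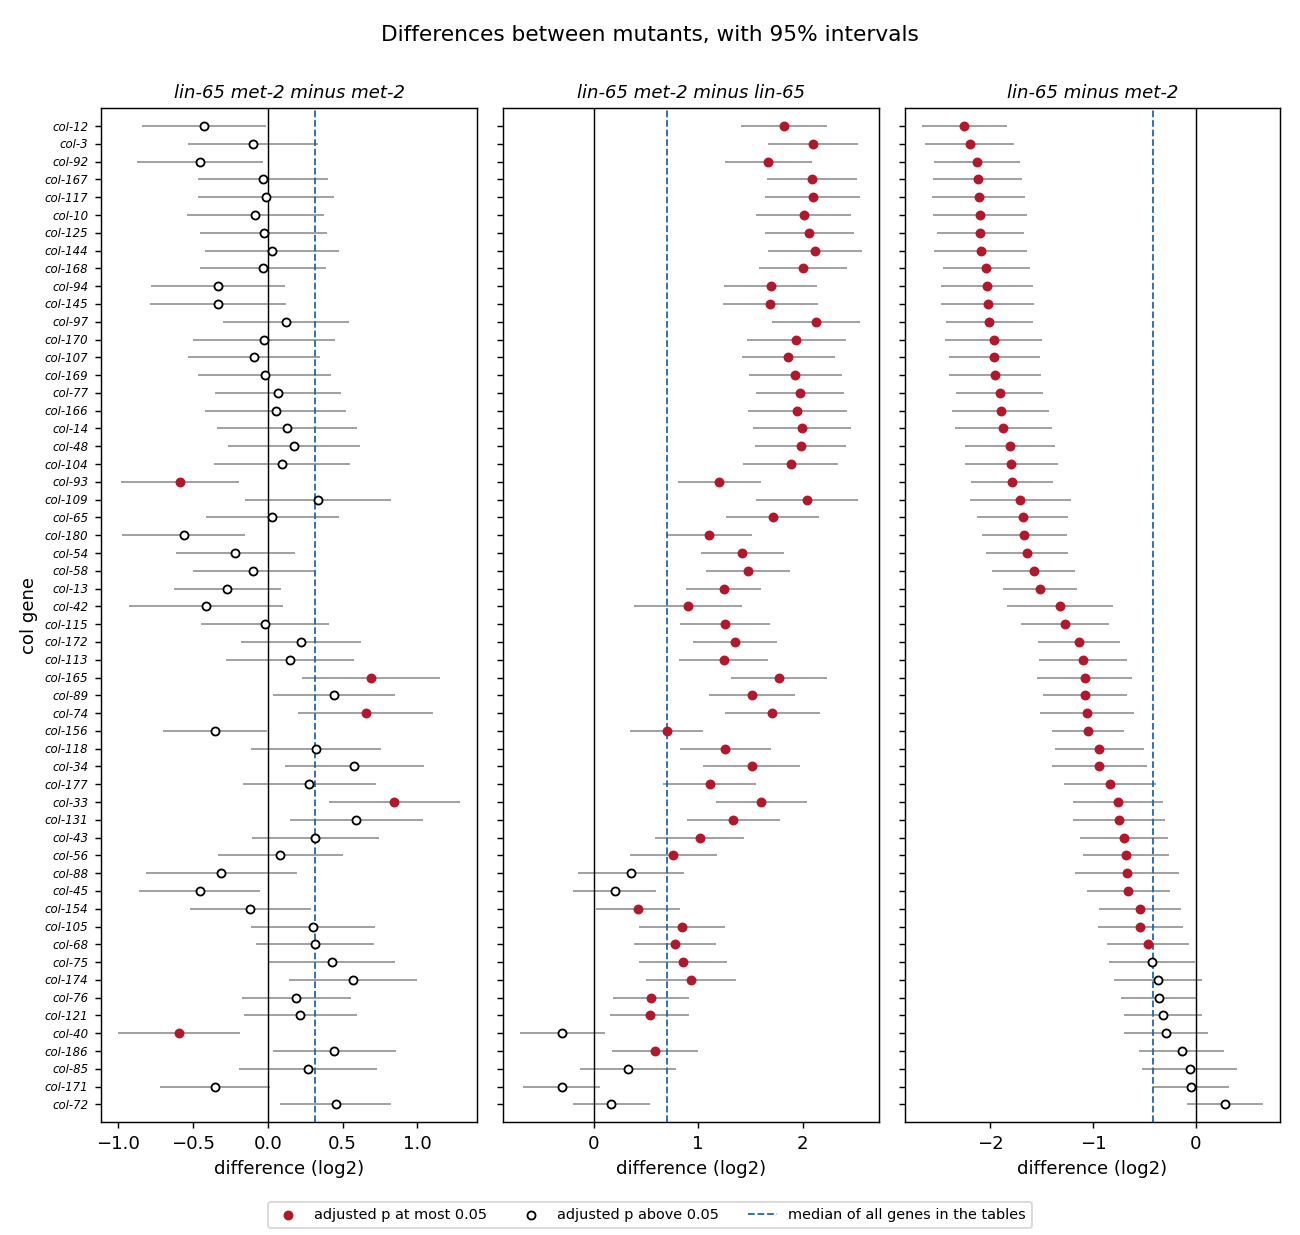
Differences in log2 ratio (horizontal axes) of the 56 col genes (rows) for the double mutant minus met-2, the double mutant minus lin-65 and lin-65 minus met-2. Bars are 95% intervals from limma, filled points have an adjusted p of at most 0.05 and the dashed line is the median of all 2949 genes (0.32, 0.70 and −0.42); most points scatter around 0 in the left panel and lie far beyond the dashed line in the other panels.

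Col genes lie on all 6 chromosomes, and members were found on each. Values were available for 6 of 21 annotated col genes on chromosome I, 8 of 24 on II, 6 of 12 on III, 15 of 41 on IV, 9 of 31 on V and 12 of 27 on X. Over the genome this was 35.9% of col genes, beside 14.2% of all protein-coding genes. Members had a median coding length of 905 nucleotides, beside 920 for the other col genes and 987 for all protein-coding genes. At most 2 coding exons were annotated for 48.2% of members, 65.0% of the other col genes and 15.1% of all protein-coding genes. A single coding exon was found in 8 members, 7 of them on chromosome X.

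Many col genes sit side by side, and 19 members fell into 7 groups of neighbours whose starts were at most 20 kb apart. The largest group was the run of col-167, col-168, col-169, col-170 and col-171 on chromosome X, with no other protein-coding gene between them and all on the same strand. Its leading 4 genes stood at 2.05 to 2.38 in double mutants, 0.11 to 0.38 in lin-65 and 2.07 to 2.41 in met-2. The last gene of the run, col-171, stood below N2. Its libraries read −1.17, −0.97 and −1.08 in the double mutant, −1.02, −0.73 and −0.55 in lin-65, and −0.66, −0.79 and −0.72 in met-2. All 9 values of col-171 were thus below N2, next to genes with all double mutant and met-2 values far above it, and it did not pass between any 2 mutants (limma adjusted p = 0.138 for the double mutant against met-2, 0.114 for the double mutant against lin-65 and 0.839 for lin-65 against met-2). With libraries set to a median of 0 over all genes, col-171 was lower in the double mutant than in met-2 (−0.61, limma adjusted p = 0.0229) and than in lin-65 (−0.95, limma adjusted p = 0.000911). Without centring these differences were −0.35 and −0.31. Centring subtracts library medians of 1.47 to 1.49 in the double mutant, 0.77 to 0.97 in lin-65 and 1.06 to 1.53 in met-2. All genes shift alike by these offsets, so the added difference is not particular to col-171.

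Other neighbours had similar or ordered values. On chromosome IV, col-117 and col-3 lie next to each other on opposite strands and stood at 2.44 and 2.40 in the double mutant, 0.35 and 0.30 in lin-65, and 2.46 and 2.50 in met-2. On chromosome V, col-144, col-145 and col-10 share a coding length of 882 nucleotides and stood at 2.53, 1.56 and 2.33 in the double mutant, 0.41, −0.13 and 0.32 in lin-65, and 2.50, 1.90 and 2.41 in met-2. The middle gene was the lowest of these in all 3 mutants. The tandem pair col-12 and col-13, known for closely similar proteins, has a coding length of 948 nucleotides in both genes and stood at 1.73 and 1.05 in the double mutant, −0.09 and −0.19 in lin-65, and 2.16 and 1.32 in met-2.

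The run of col-92, col-93 and col-94 on chromosome III has 912 coding nucleotides in each gene. Libraries of col-92 read 1.49, 1.30 and 1.56 in the double mutant, −0.24, −0.04 and −0.39 in lin-65, and 2.29, 1.53 and 1.89 in met-2. Those of col-93 read 0.50, 0.60 and 0.65 in the double mutant, −0.79, −0.76 and −0.30 in lin-65, and 1.25, 0.91 and 1.35 in met-2. Those of col-94 read 1.64, 1.62 and 1.18 in the double mutant, −0.34, −0.21 and −0.10 in lin-65, and 2.21, 1.36 and 1.86 in met-2. In all 3 genes every lin-65 library was below N2 and every library of the other strains above it. Some lin-65 values lay close to 0, and the spread of N2 is unknown.

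The remaining neighbours were less alike. On chromosome IV, col-104 stood at 2.27 in double mutants, 0.38 in lin-65 and 2.17 in met-2, whereas col-105 beside it stood at 1.35, 0.51 and 1.05. The pair col-34 and col-33 on the same chromosome, with 2 other protein-coding genes between them, stood at 2.45 and 2.27 in the double mutant, 0.93 and 0.67 in lin-65, and 1.87 and 1.42 in met-2.

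**Figure D4:**
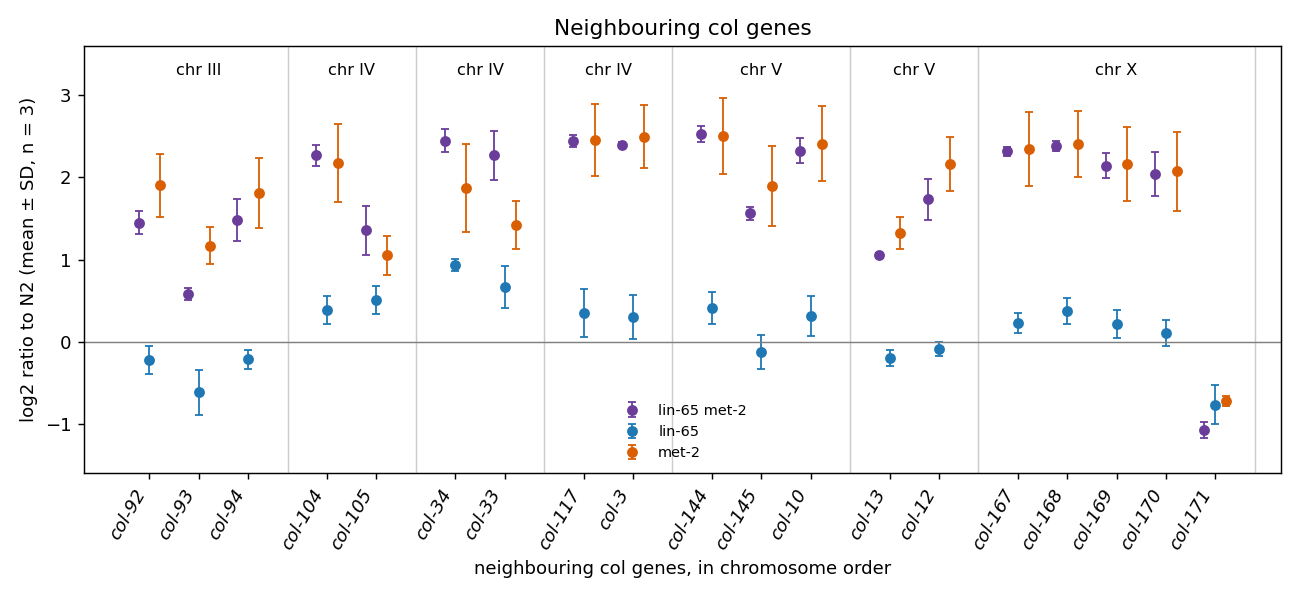
Mean log2 ratio to N2 (vertical axis, bars are the SD over 3 libraries) of the 19 col genes that have a neighbouring member, in chromosome order within 7 groups (horizontal axis). In each gene the double mutant is left, lin-65 in the middle and met-2 right; col-171 lies below N2 in all mutants beside 4 neighbours at 2.05 to 2.41 in the double mutant and met-2.

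Cuticle collagens named for body shape rather than col had medians closer together across mutants than the col genes had. The furrow collagens, which form the annular furrows of the cuticle, had values for 5 of 6 genes and medians of 1.53 for the double mutant, 0.86 for lin-65 and 1.22 for met-2. In lin-65 the furrow collagens dpy-10, dpy-2, dpy-7 and dpy-3 stood at 1.02 ± 0.08, 0.92 ± 0.12, 0.86 ± 0.08 and 0.82 ± 0.04. The remaining one, dpy-8, was lower there at 0.35 ± 0.39, beside 1.17 ± 0.10 in the double mutant and 0.47 ± 0.24 in met-2. It was higher in the double mutant than in met-2 (difference 0.70, limma adjusted p = 0.0302). Only its double mutant mean is at least 1 unit from 0, so dpy-8 has values through that strain alone and this p-value is a description. Between lin-65 and met-2, 0 of the 5 passed in limma (46.8% of all genes) and 1 had an unadjusted p under 0.05. The differences were −0.40 to −0.12. All 5 furrow collagens were higher in the double mutant than in lin-65 (74.3% of all genes). Of 15 other shape-named collagens 6 had values, with medians of 1.25, 0.69 and 1.12 in the same order of strains. Of these, sqt-3, a collagen needed for the embryonic cuticle, stood at 1.68 ± 0.13 in double mutants, 0.85 ± 0.04 in lin-65 and 1.37 ± 0.22 in met-2. It was lower in lin-65 than in met-2 (difference −0.52, SE 0.17, limma adjusted p = 0.0229), as were dpy-13 and dpy-17 and 41.9% of all genes. Of the 6, 4 were higher in the double mutant than in lin-65 (74.3% of all genes). Whether the col family differs from these lists as a group was not tested.

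Other genes of the collagen pathway were mostly without values. Of 17 genes for folding, hydroxylation, cleavage and cross-linking of collagen, 2 had values. The peroxidase mlt-7 stood at 1.12 ± 0.16 in double mutants, 0.34 ± 0.18 in lin-65 and 0.61 ± 0.71 in met-2. The tetraspanin tsp-15, a partner of the cross-linking oxidase, stood at 1.23 ± 0.16, 0.38 ± 0.22 and 0.83 ± 0.37. Basement membrane collagens and their partners had values for 5 of 13 genes. The type IV collagens emb-9 and let-2, which are made mainly by muscle, stood at 1.70 ± 0.06 and 1.91 ± 0.07 in the double mutant, 0.99 ± 0.16 and 1.06 ± 0.20 in lin-65, and 1.42 ± 0.32 and 1.63 ± 0.31 in met-2. All 5 were higher in the double mutant than in lin-65 (74.3% of all genes) and 4 were lower in lin-65 than in met-2 (41.9% of all genes). Of 14 epidermal transcription factors, 3 had values, and the Grainyhead factor grh-1 was the highest at 2.89 ± 0.06 in double mutants, 1.73 ± 0.23 in lin-65 and 2.28 ± 0.29 in met-2.

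In the comparisons with lin-65, markers of differentiated tissues differed in the same direction as most col genes, and markers of the oocyte in the opposite direction. Of 10 epidermal markers 5 had values, of which dpy-7 and grh-1 are also in the lists above, with library medians of 1.81 to 1.93 in double mutants, 0.81 to 1.18 in lin-65 and 1.32 to 1.91 in met-2; the epidermal fate genes elt-1, elt-3 and lin-26 had none. Library medians were 2.18 to 2.25, 0.94 to 1.28 and 1.54 to 2.23 for body wall muscle (8 of 10 with values), 2.09 to 2.15, 0.72 to 0.99 and 1.71 to 2.44 for intestine (4 of 10), 2.31 to 2.44, 0.55 to 0.95 and 1.76 to 2.76 for pharynx (5 of 6), and 1.81 to 1.87, 0.66 to 0.90 and 1.12 to 1.82 for neurons (8 of 10), in the double mutant, lin-65 and met-2. Every marker with values in these 5 lists was higher in the double mutant than in lin-65 (limma, adjusted p at most 0.05), as were 74.3% of all genes. In lin-65, 3 epidermal, 8 muscle, 4 intestine, 4 pharynx and 5 neuron markers were lower than in met-2, as were 41.9% of all genes. Oocyte and eggshell markers (8 of 11) had library medians of 0.90 to 0.91 in double mutants, 1.41 to 1.67 in lin-65 and 0.09 to 0.48 in met-2. All 8 were lower in the double mutant than in lin-65 (4.61% of all genes) and higher in lin-65 than in met-2 (4.92% of all genes). The table of lin-65 held all 8 as higher, that of the double mutant 3 and that of met-2 0. Their higher lin-65 values are thereby partly fixed, and these counts are a description. For the tissue markers, the table of the double mutant held every one with values. That of lin-65 held 2, 2, 0, 0 and 1 in the order above, so their lower lin-65 values are partly fixed too. Between the double mutant and met-2 these opposite directions did not hold. There 7 of the 8 oocyte markers were higher in the double mutant (11.8% of all genes), with a median difference of 0.63, and the 5 tissue lists had median differences of 0.31 to 0.42, beside 0.04 for the col genes. Germ cell markers had values for 2 of 8 genes, pgl-3 and car-1, with library medians of 1.02 to 1.18, 1.29 to 1.39 and 0.49 to 0.70. None of the 12 first zygotic genes had values, so the early embryo label could not be checked against them.

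The labels give the same range of embryo stages for each strain and no distribution of stages per library. As collection time was set by strain, its part cannot be told apart from that of genotype. The part that the tissue and oocyte markers have in the values of the col genes was not tested.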

How the data were processed

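Total RNA of early embryos was sequenced after ribosomal RNA removal from 5 µg, per the labels' protocols; the labels' molecule field says genomic DNA, and values were treated as RNA. Per the submitters' processing notes, the authors used edgeR and build ce10. For the aligner, the counting and the selection rule, sources used here name nothing. Deposited by the authors were 3 tables of log2 values for 9 mutant libraries, and genes held by several tables have identical values. The baseline was read from the values as N2, since lin-65 and met-2 lay far below 0 only in strains that lack them. Members and lists were chosen with earlier results of these data known. Of 2949 genes 2869 matched Ensembl 115 (WBcel235), which gave names, chromosomes, coding lengths and neighbours; no coordinates are printed, and sequences were not used here.

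All 9 libraries entered 1 fit without covariates in limma 3.58.1 (R 4.3.3), with an adjusted p limit of 0.05 over all 2949 genes, after a test on simulated data. P-values rest on 1 spread per gene, pooled over the 3 libraries of each of the 3 strains and moderated over all genes. The strains differ in spread, with a median member SD of 0.13 in the double mutant and 0.39 in met-2. Same-numbered libraries of different strains were not paired. Alternatives were the replicate block, centred libraries, 6 libraries alone, library weights, another prior variance, a stricter gene filter and leaving out each library. Genes named were, per mutant, the 6 highest and 4 lowest members, per contrast the 6 largest called each way and the 3 smallest, members below N2, at the listing limits or with the largest met-2 SD, and neighbours. Close copies by protein identity were not analysed.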

Additional observations from a re-analysis of the deposited data

Results flagged for a closer look

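For 5 col genes every lin-65 library lay below N2 while every library of the double mutant and of met-2 lay above it. They were picked for this pattern, so their differences are a description with no test. The share of all genes with the pattern was not counted. Some lin-65 values lay close to 0, such as −0.03 for col-12 and −0.04 for col-92, and the spread of N2 is unknown. They are the neighbours col-92, col-93 and col-94 on chromosome III and the tandem pair col-12 and col-13 on chromosome V. In the double mutant minus lin-65 the differences were 1.67 for col-92, 1.20 for col-93, 1.70 for col-94, 1.82 for col-12 and 1.24 for col-13. In lin-65 minus met-2 they were −2.12, −1.79, −2.03, −2.25 and −1.51 in the same order. The table of lin-65 held none of the 5. Within each group of neighbours reads may have been divided between similar copies, which was not tested.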

How the results depend on the processing

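Medians over the members moved when libraries were set to a median of 0 over all genes, to 0.42 in double mutants, −0.45 in lin-65 and 0.66 in met-2. They were 2.05 in the double mutant and 1.29 in lin-65 over members held in the table of that mutant. Leaving out 1 library gave medians of 1.87 to 1.93 for the double mutant, 0.32 to 0.49 for lin-65 and 1.65 to 2.05 for met-2. Members with a mean of at least 1 numbered 6, 1 and 14 in the double mutant, lin-65 and met-2 after that centring, and 26, 1 and 24 at a limit of 2 units. Counts without 1 library were 48 to 50 for the double mutant, 7 to 8 for lin-65 and 45 to 49 for met-2. Called members in the double mutant against met-2 numbered 5, but 1 with the replicate block, 14 after centring, 1 with 6 libraries alone, 32 with library weights (23 higher, 9 lower; 75.9% of all genes), 3 among genes at least 1 unit from 0 in both mutants, and 0 to 22 without 1 library, where 5.19% to 66.5% of all genes were called. Among genes at least 1 unit from 0 in both mutants, where 8 and 7 members were tested, called members numbered 5 in the double mutant against lin-65 and 6 in lin-65 against met-2. Over all genes these comparisons called 50 and 47 members (78.9% and 46.8% of all genes), with 47 to 50 and 43 to 48 without 1 library. Without 1 library they called 67.4% to 78.3% and 30.6% to 53.1% of all genes. With the block they called 49 and 46 members (75.7% and 42.8% of all genes). Deviations of same-numbered libraries correlated with r of −0.21 to 0.04, so the number was not taken as a pairing. For col-72 in the double mutant against lin-65 the sign turned to −0.47 after centring. The cause of these changes was not tested, except that the stricter filter leaves fewer members to test. Centring shifts all genes of a library alike, by the median of that library. Depth is unknown, and the SDs cover the mutant libraries alone, not N2.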
